A study of Mus musculus with 32 samples.

Results

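The 7 noncoding snoRNA host genes *Gas5*, *Snhg1*, *Snhg3*, *Snhg5*, *Snhg6*, *Snhg8* and *Snhg12* were followed through mouse zygotic genome activation and through chemical block of histone acetylation or deacetylation. They were chosen by name among the 55385 genes of the expression tables, through GENCODE M21 gene identifiers. All embryos were wild type and came from in vitro fertilisation of B6D2F1/J oocytes with B6D2F1/J sperm, from mice 6 to 8 weeks old, with culture in KSOM medium. A-485, an inhibitor of the acetyltransferases CBP and p300, was given at 10 µM from 4 to 20 h post-insemination (hpi), and zygotes, early 2-cell embryos and late 2-cell embryos were each set against their own DMSO vehicle control. Trichostatin A (TSA), an inhibitor of histone deacetylases, was given at 50 nM from 8 to 28 hpi, and late 2-cell embryos were set against a further DMSO control. These 8 groups held 2 total RNA-seq libraries each, made from whole embryos. ATAC-seq peak lists, which mark accessible chromatin, covered DMSO and A-485 embryos at 2 stages, late 1-cell and then early 2-cell. In bulk samples, fewer cells of a type and less RNA per cell cannot be told apart.

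snoRNA host genes carry small nucleolar RNAs inside their introns. The snoRNAs are cut out during splicing and guide chemical modification or processing of ribosomal RNA, and the spliced host RNA of the noncoding hosts is often degraded by nonsense-mediated decay. Several noncoding hosts are 5′ terminal oligopyrimidine (TOP) genes, whose transcripts start with a C followed by a run of pyrimidines, as ribosomal protein mRNAs do. *Gas5* is known as a growth-arrest transcript that accumulates when cells stop dividing.

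The start regions of the members are printed because they show what the hosts had in common apart from their function. RefSeq sequences on GRCm38.p6 were available for 6 of the 7 members. Each line gives 45 bases before and 20 bases after an annotated start, 5′ to 3′ on the strand of the gene. Capitals mark a TATA-type hexamer (TATAAA or TATATA or TATTTA, searched on the strand of the gene, beginning 20 to 40 bases before the start) and a C followed by at least 4 C or T bases that begins within 5 bases of the start. *Gas5* has a pair of RefSeq starts, printed separately.
Gas5 upstream start, chr1:161034556-161034620, plus strand: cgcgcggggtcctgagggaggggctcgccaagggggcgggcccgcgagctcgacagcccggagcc
Gas5 downstream start, chr1:161035121-161035185, plus strand: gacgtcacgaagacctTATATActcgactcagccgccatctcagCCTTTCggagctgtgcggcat
Snhg1, chr19:8723442-8723506, plus strand: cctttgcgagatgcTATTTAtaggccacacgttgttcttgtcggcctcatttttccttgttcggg
Snhg5, chr9:88522878-88522942, minus strand: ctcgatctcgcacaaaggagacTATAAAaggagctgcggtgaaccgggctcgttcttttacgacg
Snhg12, chr4:132308633-132308697, plus strand: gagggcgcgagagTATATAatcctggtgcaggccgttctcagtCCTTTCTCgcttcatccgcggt
Snhg8, chr3:123508317-123508381, minus strand: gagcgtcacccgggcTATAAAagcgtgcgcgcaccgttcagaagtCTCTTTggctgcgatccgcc
Snhg3, chr4:132353667-132353731, minus strand: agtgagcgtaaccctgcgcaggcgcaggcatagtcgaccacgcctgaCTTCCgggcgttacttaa

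A TATA-type hexamer stood at 23 to 32 bases before the start in 5 of the 6 members, counting the downstream start of *Gas5*, against 3.36% of the 32851 RefSeq mouse promoters searched in the same way. A C followed by at least 4 pyrimidines at the start was found in 4 of 6, against 18.3% of all promoters. *Gas5* at its downstream start, *Snhg12* and *Snhg8* held both, a combination present in 0.667% of all promoters. *Snhg3* was the member with no TATA-type hexamer in that window. These letter matches are descriptions and not shown sites of binding.

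On GRCm38 with the GENCODE M21 annotation, the hosts contain 29 annotated snoRNA genes. *Gas5* (chr1:161034422-161038539, plus strand) holds 10 of them and *Snhg1* (chr19:8723475-8726443, plus strand) holds 8. *Snhg12* (chr4:132308623-132311024, plus strand) holds 5, and *Snhg3* (chr4:132348014-132353686, minus strand) and *Snhg5* (chr9:88521050-88522929, minus strand) hold 2 each. *Snhg6* (chr1:9941959-9944118, minus strand) and *Snhg8* (chr3:123507552-123508404, minus strand) hold 1 each. These numbers include a duplicate entry of *Snord80* in *Gas5* and of *Snora16a* in *Snhg12*. Each duplicate overlaps an entry of the same name and had 0 counts in all libraries. The snoRNA sequences below, read from the GRCm38.p6 genome, are of 4 genes counted well enough to set beside their hosts *Gas5*, *Snhg6*, *Snhg12* and *Snhg3* in turn. In the first 3, which are C/D snoRNAs, capitals mark the C box letters ATGATGA and the D box letters CTGA that hold the core proteins, and in *Snora73b*, an H/ACA snoRNA, they mark the ACA near the 3′ end.
Gm22357 in Gas5, chr1:161036057-161036139, plus strand: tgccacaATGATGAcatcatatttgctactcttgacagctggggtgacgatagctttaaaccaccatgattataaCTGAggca
Snord87 in Snhg6, chr1:9942463-9942549, minus strand: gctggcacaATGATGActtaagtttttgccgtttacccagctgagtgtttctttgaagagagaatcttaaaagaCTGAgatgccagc
Snord99 in Snhg12, chr4:132310691-132310764, plus strand: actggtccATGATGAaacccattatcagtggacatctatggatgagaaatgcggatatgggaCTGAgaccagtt
Snora73b in Snhg3, chr4:132352322-132352526, minus strand: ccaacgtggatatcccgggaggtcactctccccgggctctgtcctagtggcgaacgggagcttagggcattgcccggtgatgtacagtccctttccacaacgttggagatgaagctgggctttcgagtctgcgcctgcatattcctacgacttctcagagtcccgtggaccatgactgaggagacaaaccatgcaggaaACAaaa

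The 16 RNA libraries held 13206163 to 32585987 estimated counts. The 4 libraries of the TSA experiment stood apart from the 12 of the A-485 experiment, with 0.191 to 0.299% against 0.0158 to 0.0640% of counts in snoRNA genes and mean fragment lengths of 144.9 to 158.1 against 191.4 to 219.5 bp. Each treatment was therefore compared with the DMSO control of its own experiment. The labels do not say whether the libraries of different stages in the A-485 experiment were made together. Differences between stages may therefore include differences in preparation. All 8 oocyte and early embryo markers were detected in every group, and the summed level of 8 cumulus cell markers was 0.73 to 13.7 FPKM (RSEM fragment counts scaled for transcript length and library depth). The labels do not say whether the 2 libraries of a group came from separate fertilisations, so p-values measure only the spread between these libraries.

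In the vehicle controls, 6 of the 7 host RNAs were detected in zygotes, and the members other than *Snhg6* were highest in late 2-cell embryos. *Gas5* was listed at 17.7 and 16.4 FPKM in the DMSO zygotes, at 25.0 and 42.4 FPKM in early 2-cell embryos, and at 58.2 and 83.6 FPKM in late 2-cell embryos. *Snhg1*, which carries a series of C/D snoRNAs, went from 18.2 and 12.1 FPKM through 29.2 and 29.5 FPKM to 53.2 and 66.9 FPKM. *Snhg5* went from 4.83 and 4.95 FPKM through 18.4 and 29.1 FPKM to 51.2 and 52.5 FPKM. The 3 stages did not overlap for any of these genes. *Snhg12* was at 0.14 and 0.67 FPKM in zygotes, 4.55 and 7.88 FPKM in early and 23.7 and 42.7 FPKM in late 2-cell embryos. *Snhg8* was low throughout the first stages, at 2.96 and 1.69 FPKM and then 7.76 and 6.48 FPKM, and reached 13.4 and 16.6 FPKM. *Snhg3* was listed at 0 in both zygote libraries, at 0.41 and 0.56 FPKM in early and at 13.4 and 16.1 FPKM in late 2-cell embryos, so it appeared mainly between the last stages. *Snhg6* alone dipped, from 8.75 and 11.1 FPKM in zygotes to 0.59 and 1.36 FPKM in early 2-cell embryos, and was back at 10.8 and 7.12 FPKM in late 2-cell embryos.

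FPKM corrects for transcript length, so the members can be ordered within a stage. In DMSO zygotes *Gas5* and *Snhg1* were the highest and overlapped with each other, *Snhg6* followed, and *Snhg5* and then *Snhg8* lay lower without overlap between neighbours. *Snhg12*, with 1 and 19 counts, and *Snhg3*, with 0 counts, were the lowest per length, and the place of *Snhg12* is uncertain, since the effective length behind its FPKM was 229.8 in replicate 1 and 983.6 bases in replicate 2. In late 2-cell DMSO embryos of the A-485 experiment *Gas5*, *Snhg1* and *Snhg5* led, at 51.2 to 83.6 FPKM, with *Gas5* and *Snhg1* overlapping. *Snhg12* came next at 23.7 and 42.7 FPKM. *Snhg8*, *Snhg3* and *Snhg6* were lowest, at 7.12 to 16.6 FPKM, and *Snhg8* and *Snhg3* overlapped.

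**Figure D1:**
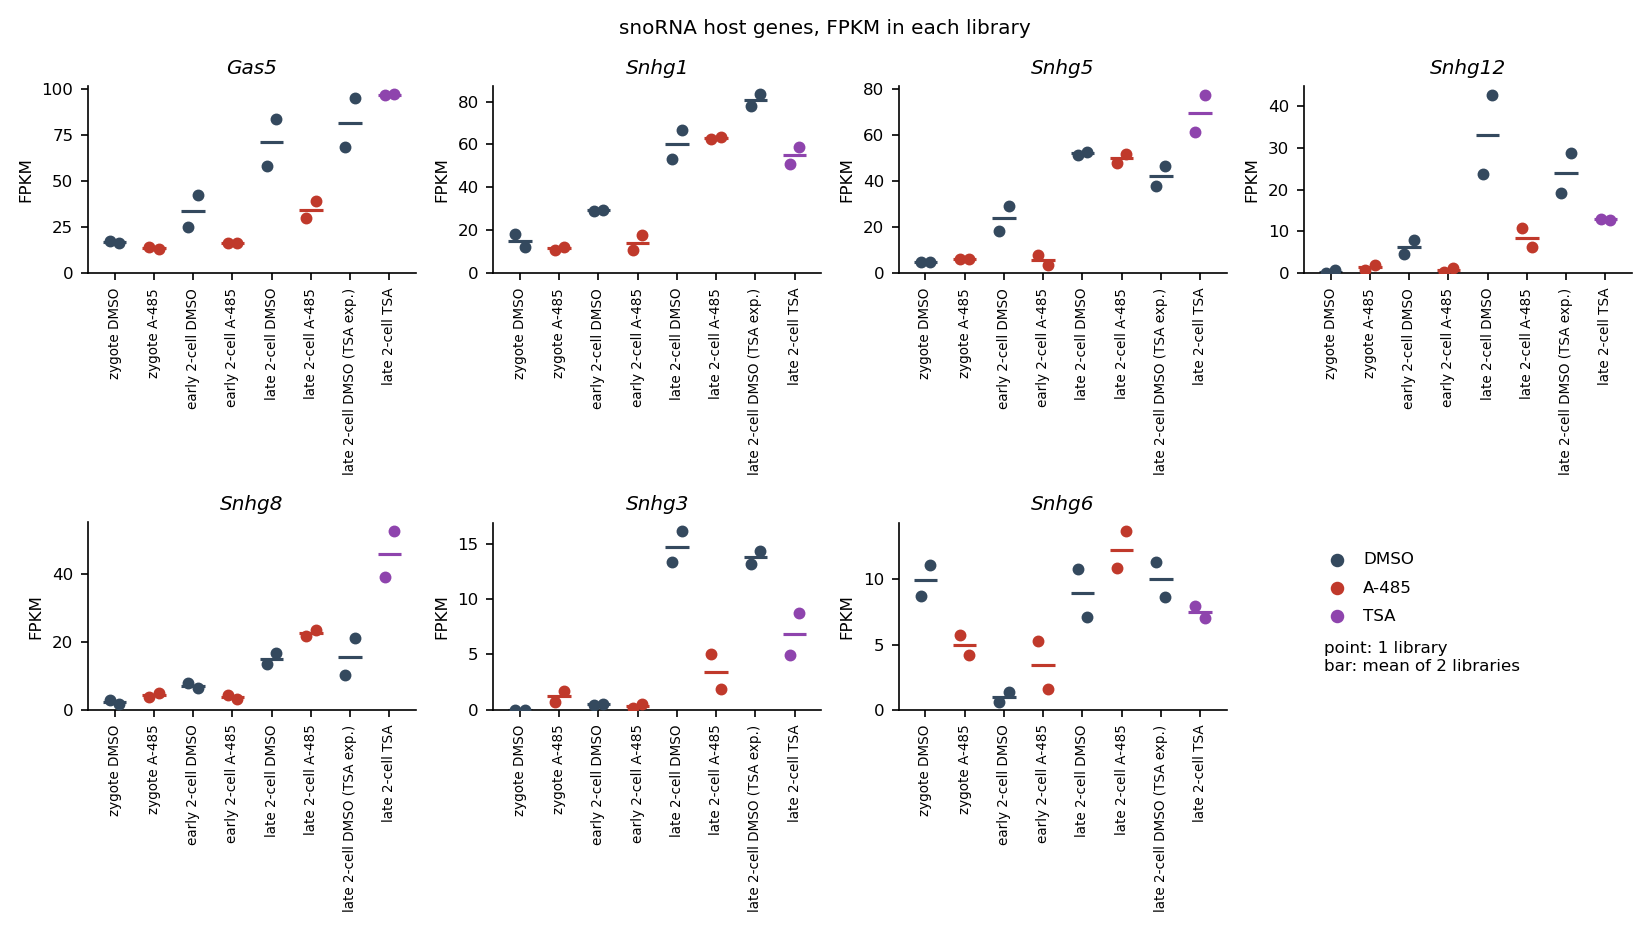
FPKM of the 7 host genes in the 8 RNA groups, 1 point per library, 2 libraries per group. In DMSO embryos *Gas5* rises from 17.7 and 16.4 to 58.2 and 83.6 FPKM between zygote and late 2-cell stage, and *Snhg6* dips to 0.59 and 1.36 FPKM in early 2-cell embryos.

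Early 2-cell DMSO embryos were compared with DMSO zygotes to ask how the hosts moved over the first division. Values here and below are TMM-scaled CPM, counts brought to a common library size, the scale on which the test ran, and a gene was called when the edgeR quasi-likelihood test gave an adjusted p below 0.05 over all genes tested, the change was at least 2-fold and the mean FPKM of either group was at least 1. Of the 6 members tested, 5 were called higher and 1 lower, where 11.2% of 20106 tested genes were called higher and 14.9% lower. *Snhg5* rose from 3.03 and 3.20 to 12.9 and 13.996 CPM, a log2 fold change of 2.11 (SE 0.25, edgeR adjusted p = 1.09e-05). *Snhg1* rose from 6.06 and 4.34 to 14.1 and 14.3 CPM (log2 fold change 1.45, SE 0.25, edgeR adjusted p = 0.000273). *Gas5* rose from 5.93 and 5.52 to 10.4 and 14.8 CPM (log2 fold change 1.14, SE 0.25, edgeR adjusted p = 0.00209). In each of the 3 genes, both 2-cell libraries lay above both zygote libraries. *Snhg12* rose from 0.032 and 0.639 to 2.33 and 2.80 CPM, with a zygote library of 1 count, and had a log2 fold change of 2.93 (SE 0.86, edgeR adjusted p = 0.0128). *Snhg8* rose from 0.797 and 0.572 to 2.18 and 2.01 CPM (log2 fold change 1.61, SE 0.58, edgeR adjusted p = 0.0371), and this call was lost when any of the 4 libraries was left out (edgeR adjusted p = 0.0603 to 0.18). *Snhg6*, the host of *Snord87*, fell from 2.26 and 2.76 to 0.291 and 0.513 CPM, a log2 fold change of −2.62 (SE 0.61, 95% interval −3.94 to −1.31, edgeR adjusted p = 0.00279). The *Gas5* call was also lost without early 2-cell DMSO replicate 2 (0.88, under 2-fold). When libraries were scaled to mitochondrially encoded mRNAs in place of TMM, the median log2 fold change of all tested genes moved from 0.08 to −1.24, *Snhg6* was the 1 member still called, none was called higher, and *Gas5* turned to −0.17.

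Between early and late 2-cell DMSO embryos, the interval of major genome activation, 6 of the 7 members rose and none was called lower, where 16% of 20326 tested genes were called higher and 8.91% lower. *Snhg3*, host of the H/ACA snoRNAs *Snora73a* and *Snora73b*, went from 3 and 3 counts (0.142 and 0.135 CPM) to 79 and 76 counts (3.51 and 3.86 CPM), a ratio of 26.5 with an exact 95% interval of 11.9 to 73.4 that covers counting error only. Its fitted log2 fold change was 4.68 (SE 0.69, edgeR adjusted p = 0.000156). *Snhg6* returned from 0.284 and 0.494 to 2.75 and 2.08 CPM (log2 fold change 2.62, SE 0.71, edgeR adjusted p = 0.0112). *Snhg12* rose from 2.27 and 2.69 to 10.3 and 16.3 CPM (log2 fold change 2.41, SE 0.35, edgeR adjusted p = 0.000137). The remaining members changed less, and in every member both late libraries lay above both early ones. The share of all tested genes with groups separated in this way was not computed, here or in the other comparisons. *Snhg5* rose from 12.6 and 13.5 to 31.6 and 30.8 CPM (log2 fold change 1.26, SE 0.19, edgeR adjusted p = 0.000221). *Gas5* rose from 10.2 and 14.2 to 23.7 and 30.0 CPM (1.13, SE 0.24, edgeR adjusted p = 0.00222) and *Snhg1* from 13.7 and 13.7 to 25.5 and 30.7 CPM (1.03, SE 0.20, edgeR adjusted p = 0.00147). *Snhg8* was at 2.13 and 1.93 and then 4.31 and 4.67 CPM, and its log2 fold change of 1.14 (SE 0.43, edgeR adjusted p = 0.057) missed the threshold. Calls were lost for *Gas5* without early replicate 1 (0.91) or late replicate 2 (0.97) and for *Snhg1* without late replicate 2 (0.91), all under 2-fold, and for *Snhg6* without late replicate 1 (2.40, edgeR adjusted p = 0.0668). Set against the same early libraries, the late 2-cell DMSO libraries of the TSA experiment had all 7 members called higher, with *Snhg8* at 1.43 (edgeR adjusted p = 0.0155), and there stage and experiment cannot be told apart.

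In zygotes, A-485 was compared with DMSO to ask whether acetyltransferase activity set host levels in the first cell cycle. None of the 7 members was called by edgeR, where 0.0657% of 18258 tested genes were called lower and 0.00548% higher, and 1 member had an unadjusted p below 0.05, as did 5.88% of all tested genes. DESeq2 called none either. *Snhg6* was at 2.33 and 2.84 CPM with DMSO and 1.51 and 1.14 CPM with A-485, without overlap (log2 fold change −0.96, SE 0.40, edgeR adjusted p = 0.83). *Gas5* was at 6.10 and 5.68 CPM against 4.60 and 4.37 CPM (−0.39, SE 0.23, edgeR adjusted p = 0.893). *Snhg5* was at 3.12 and 3.29 CPM against 3.18 and 3.17 CPM, with a 95% interval of its log2 fold change of −0.64 to 0.61. *Snhg8* was at 0.820 and 0.589 CPM with DMSO and lay higher without overlap with A-485, at 0.988 and 1.33 CPM (0.71, SE 0.60, edgeR adjusted p = 0.979). The groups overlapped for *Snhg1*, *Snhg5* and *Snhg12*. *Snhg3* had 0 counts in both DMSO zygote libraries, where the floor of 3 counts over the group is 0.0507 CPM, and 3 and 8 counts with A-485. The *Snhg12* interval, −2.46 to 2.84, leaves changes of several fold undetectable at this depth.

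In early 2-cell embryos, A-485 lowered 2 of the 7 members and raised none, where 7.9% of 20873 tested genes were called lower and 0.402% higher. *Snhg5* was at 12.4 and 13.4 CPM with DMSO and 4.15 and 2.91 CPM with A-485 (log2 fold change −1.87, SE 0.27, 95% interval −2.47 to −1.28, edgeR adjusted p = 0.000485). *Gas5* was at 10.1 and 14.2 CPM against 5.52 and 5.74 CPM (−1.11, SE 0.26, 95% interval −1.67 to −0.54, edgeR adjusted p = 0.0139). Both treated libraries lay below both controls in each gene. *Snhg1* was at 13.6 and 13.7 CPM against 6.38 and 7.95 CPM, and its log2 fold change of −0.93 (SE 0.23, edgeR adjusted p = 0.019) passed the p threshold but not the 2-fold limit. *Snhg12* was at 2.25 and 2.69 CPM against 0.228 and 0.832 CPM, 48 and 60 counts against 5 and 20, and missed the threshold at −2.20 (SE 0.70, edgeR adjusted p = 0.0637). *Snhg8* was at 2.11 and 1.93 CPM against 1.28 and 1.21 CPM (−0.70, SE 0.54, edgeR adjusted p = 0.491). *Snhg6* and *Snhg3* overlapped between the groups, *Snhg6* with 6 and 11 counts against 31 and 11, and *Snhg3* with 3 and 3 counts against 1 and 4. Without DMSO replicate 2, *Gas5* was no longer called (−0.84, edgeR adjusted p = 0.115) and 1 member remained. Without A-485 replicate 2, 4 members were called, with *Snhg1* and *Snhg12* added. The summed level of 6 markers of the 2-cell embryo was 357.9 to 419.9 FPKM in these controls and 10.2 to 12.8 FPKM with A-485.

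In late 2-cell embryos, A-485 lowered *Gas5*, *Snhg3* and *Snhg12*, 3 of the 7 members, and raised none, where 16.7% of 22826 tested genes were called lower and 10.5% higher. *Gas5* was at 25.3 and 32.0 CPM with DMSO and 10.7 and 14.6 CPM with A-485 (log2 fold change −1.18, SE 0.26, 95% interval −1.75 to −0.60, edgeR adjusted p = 0.00407). *Snhg12* was at 10.97 and 17.4 CPM against 6.23 and 4.59 CPM (−1.39, SE 0.37, 95% interval −2.20 to −0.59, edgeR adjusted p = 0.0106). *Snhg3* was at 3.75 and 4.13 CPM against 1.06 and 0.440 CPM (−2.39, SE 0.70, 95% interval −3.93 to −0.85, edgeR adjusted p = 0.0183). The 2 groups did not overlap for any of these 3. *Snhg5*, in contrast, was at 33.8 and 32.9 CPM with DMSO and 32.5 and 37.1 CPM with A-485, with a log2 fold change of 0.06 and a 95% interval of −0.36 to 0.49. *Snhg1* was at 27.3 and 32.8 CPM against 24.6 and 21.7 CPM (−0.38, SE 0.22, edgeR adjusted p = 0.19). *Snhg8* was at 4.61 and 4.99 CPM against 6.66 and 6.60 CPM, and *Snhg6* at 2.95 and 2.23 CPM against 4.60 and 4.96 CPM. For these last 2 genes both treated libraries lay above both controls, but the changes of 0.46 and 0.88 did not pass (edgeR adjusted p = 0.391 and 0.188).

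The late 2-cell calls rested on DMSO replicate 2. Without it none of the members was called, with *Gas5* at −0.98 (edgeR adjusted p = 0.0485, under 2-fold), *Snhg3* at −2.31 (0.0623) and *Snhg12* at −1.01 (0.126). Without A-485 replicate 1 *Gas5* was at −0.96, and without A-485 replicate 2 *Snhg3* was at −1.87 (edgeR adjusted p = 0.0593). The treated libraries held 5.35 to 5.43% of counts in mitochondrial mRNAs against 2.35 to 2.45% in the controls, and scaling to those mRNAs moved the median of all tested genes from 0.28 to −0.69 and turned *Snhg5* to −0.92, *Snhg8* to −0.52 and *Snhg6* to −0.08, with *Snhg1* then called lower (−1.36, edgeR adjusted p = 0.000374). Ribosomal RNA genes, the mitochondrial ones included, held 14.1 to 15.3% of counts with A-485 and 8.19 to 9.84% with DMSO. The 6 markers of the 2-cell embryo summed to 57.9 to 60.8 FPKM with A-485 and 224.1 to 239.2 FPKM with DMSO, and 5 of them were called lower. The 8 oocyte markers summed to 1433 to 1434 against 756.4 to 813.5 FPKM, with 1 called higher and a median log2 fold change of 0.36. The cumulus markers moved both ways, with 2 called higher and 1 lower, and their sum of 3.37 to 3.82 against 7.94 to 11.9 FPKM turned on *Amhr2*, at 0.65 and 0.04 against 6.95 and 10.7 FPKM. *Fshr* was listed at 0 in all 4 libraries. The part of these differences in the member results was not tested.

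In late 2-cell embryos, TSA lowered *Snhg1*, *Snhg3* and *Snhg12*, 3 of the 7 members, and raised *Snhg8*, 1 of the 7, where 13.9% of 23431 tested genes were called lower and 13.8% higher. *Snhg1* was at 47.5 and 54.0 CPM with DMSO and 20.2 and 25.5 CPM with TSA (log2 fold change −1.15, SE 0.15, 95% interval −1.48 to −0.82, edgeR adjusted p = 9.61e-05). *Snhg12* was at 11.3 and 15.9 CPM against 5.90 and 5.40 CPM (−1.27, SE 0.25, 95% interval −1.83 to −0.71, edgeR adjusted p = 0.00195). *Snhg3* was at 3.93 and 4.89 CPM against 1.12 and 2.29 CPM (−1.37, SE 0.42, edgeR adjusted p = 0.023). None of the 3 overlapped between groups. *Snhg8* was the member that rose, from 4.02 and 8.14 to 10.997 and 15.5 CPM (1.13, SE 0.33, 95% interval 0.39 to 1.87, edgeR adjusted p = 0.019). *Snhg5* was at 29.1 and 33.5 CPM against 36.7 and 49.4 CPM, and its 0.46 (SE 0.16, edgeR adjusted p = 0.0397) stayed under 2-fold. *Gas5* was at 31.6 and 45.7 CPM against 32.1 and 35.8 CPM and overlapped between groups, with a log2 fold change of −0.19 (95% interval −0.57 to 0.20) that turned to 0.17 when libraries were scaled to their totals. *Snhg6* was at 4.14 and 3.34 CPM against 2.29 and 2.42 CPM (−0.67, SE 0.35, edgeR adjusted p = 0.16).

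With scaling to library totals, the median of all tested genes in the TSA comparison moved from 0.13 to 0.48, and 1 member was called, *Snhg8*, with none lower. With all 16 libraries in 1 fit, *Snhg1* and *Snhg8* were called. *Snhg3* was no longer called without DMSO replicate 2 (−1.20, edgeR adjusted p = 0.0901). *Snhg8* was no longer called under mitochondrial scaling (0.92), without DMSO replicate 1 (0.70) or without TSA replicate 2 (0.89), and without TSA replicate 1 the 2 members called were *Snhg12* and *Snhg8*. Mitochondrial mRNAs held 3.66 to 3.72% of counts with TSA and 2.39 to 2.71% with DMSO, and the ribosomal RNA genes 11.8 to 12.4% and 9.48 to 9.69%. The 2-cell markers summed to 345.5 to 404.4 FPKM with TSA and 142.6 to 167.9 FPKM with DMSO, with 3 of 6 called higher, and the oocyte markers to 749.2 to 777.2 against 587.3 to 606.6 FPKM, with 1 of 8 called lower and none higher. The cumulus sum of 4.13 to 4.62 against 11.95 to 13.7 FPKM turned on *Amhr2*, at 2.50 and 2.07 against 11.02 and 12.7 FPKM, while the list's median log2 fold change was 1.56 over the 7 tested. Their part in these results was not tested.

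**Figure D2:**
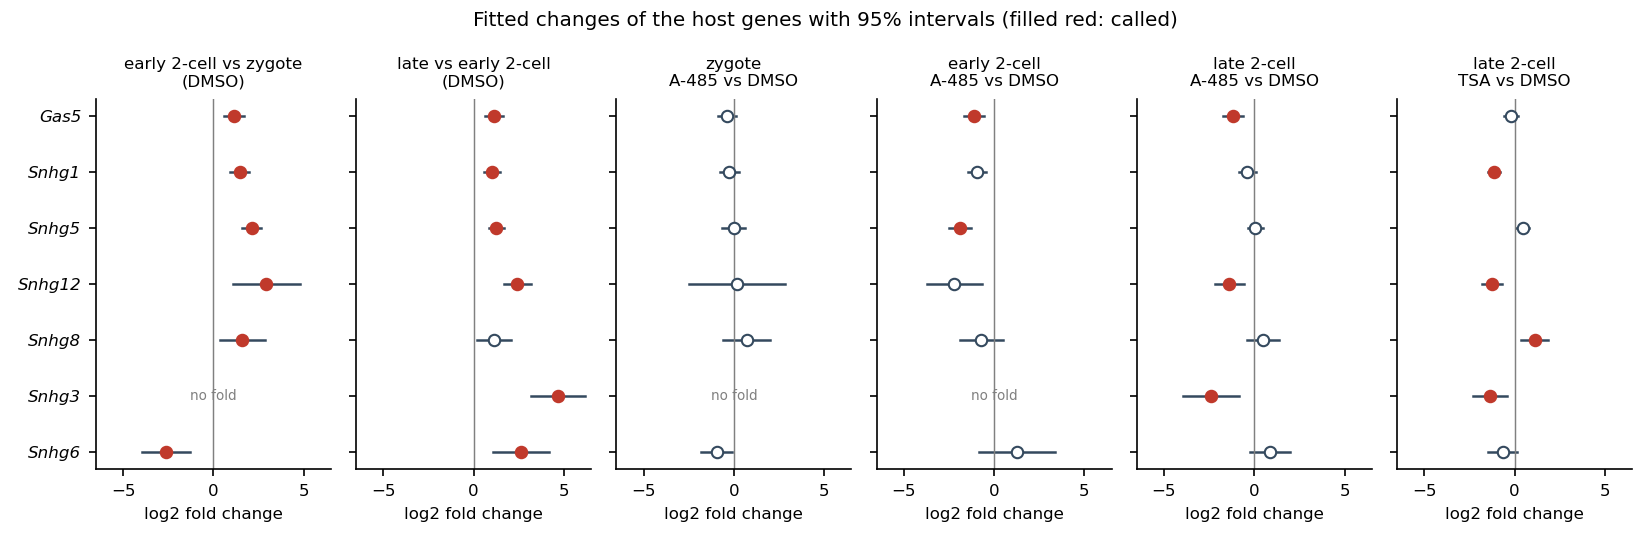
Log2 fold changes of the 7 host genes (edgeR, TMM scaling) with 95% intervals in each comparison, 2 libraries per group. Filled red points were called, and no fold is drawn for *Snhg3* where both groups held few or no counts. *Snhg5* sits at −1.87 with A-485 in early and at 0.06 in late 2-cell embryos, and *Gas5* at −1.18 with A-485 and −0.19 with TSA in late 2-cell embryos.

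The effect of A-485 was then tested for a difference between the 2-cell stages, by an interaction term. Treatment ended at the early 2-cell stage, so late 2-cell embryos were collected after A-485 had been removed. Stage and time since removal cannot be told apart in this comparison. Of the 7 members, *Snhg5* differed, where 10.1% of 25145 tested genes had a higher and 9.9% a lower effect in late embryos at an adjusted p below 0.05. Its effect was 2.02 higher on the log2 scale in late than in early 2-cell embryos (SE 0.33, 95% interval 1.34 to 2.69, edgeR adjusted p = 4.83e-05), and it differed in all 14 alternatives run, leaving out each library included. The size of the *Snhg5* difference ranged from 0.98 to 2.25 over the settings. *Gas5* was lowered at both stages, by −1.11 and −1.18, and the difference in effect was 0.02 (SE 0.39, edgeR adjusted p = 1). That value had a negative sign in 10 of 14 alternatives and was −1.03 with mitochondrial scaling, which moved the median difference of all tested genes from 0.44 to −0.59. The other members did not pass, with *Snhg3* at −1.97 (edgeR adjusted p = 0.405) and *Snhg8* at 1.24 (edgeR adjusted p = 0.232) the widest.

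A-485 and TSA act on opposing enzymes and were given at different concentrations over different hours, in separate experiments with separate controls. Their effects at the late 2-cell stage are set side by side with an interaction term that spans these differences. *Gas5* was the 1 member that differed, where 4.6% of 26559 tested genes had a higher and 12.8% a lower effect with A-485. The A-485 effect on *Gas5* was lower by 1.10 on the log2 scale (−1.10, SE 0.31, 95% interval −1.75 to −0.44, edgeR adjusted p = 0.0192). This call was lost without late 2-cell DMSO replicate 2 of the A-485 experiment (−0.93, edgeR adjusted p = 0.0927), A-485 replicate 1 (−0.86, 0.0694), DMSO replicate 1 of the TSA experiment (−0.85, 0.141) or TSA replicate 2 (−0.97, 0.0815). *Snhg1* fell by 1.15 on the log2 scale with TSA and had a change of −0.38 with A-485, and the difference of 0.67 did not pass (edgeR adjusted p = 0.0955), though it did with DESeq2 (0.80, adjusted p = 0.0372), and it turned to −0.022 with mitochondrial scaling, under which the median of all tested genes was −0.69. *Snhg12* had −1.39 and −1.27, and *Snhg3* −2.39 and −1.37, with differences of −0.23 and −1.13 that did not pass (edgeR adjusted p = 0.841 and 0.403). Between the late 2-cell DMSO groups of the 2 experiments, *Snhg1* was 0.68 higher in the TSA experiment (SE 0.16, edgeR adjusted p = 0.0437), where 2.38% of 20649 genes differed at that threshold, and the other members lay at −0.17 to 0.45.

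The snoRNA genes inside the hosts were counted separately from the spliced hosts. These libraries were not size selected for small RNAs, so the counts cannot tell a mature snoRNA from intron RNA, and strand settings of the counting are not given in the sources used here. Of the 29 genes, 16 to 27 passed the count filter in a comparison. A call also needs a mean of 1 FPKM, which 6 of them reached in each comparison within the A-485 experiment and 17 with TSA, so the others could not be called. FPKM depends on the effective length, which was 0 to 2.03 bases for *Gm22357* at 86 to 1695 counts per library. Missing the FPKM limit therefore need not mean few counts. None of the snoRNA genes was called, and by adjusted p alone 1 passed, *Snord22* of *Snhg1* between early 2-cell embryos and zygotes, at under 2-fold. In the order of the comparisons above, from early 2-cell against zygote to TSA, the median log2 fold changes of the snoRNA genes tested were 0.43, 0.59, −0.31, 0.07, 0.07 and −0.40. *Gm22357*, *Snord22*, *Snord87*, *Snord99* and *Snora73b* had at least 20 counts in every library, a selection made after the counts were seen. *Gm22357* was 2.68 higher on the log2 scale in the late 2-cell DMSO libraries of the TSA experiment than in those of the A-485 experiment (SE 0.27, edgeR adjusted p = 0.000122), so snoRNA levels were read within an experiment only.

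In late 2-cell embryos with A-485, *Gas5* fell by 1.18 on the log2 scale while *Gm22357* within it was at 8.22 and 8.85 CPM with DMSO and 9.20 and 11.6 CPM with A-485, a change of 0.28 (SE 0.33). *Snhg12* fell by 1.39 while its *Snord99* was at 3.52 and 2.01 CPM against 2.62 and 3.14 CPM, a change of 0.06 (SE 0.59). *Snhg3* fell by 2.39 while its *Snora73b* was at 2.71 and 4.18 CPM against 2.62 and 3.20 CPM, a change of −0.24 (SE 0.55). The treated snoRNA values overlapped the controls or lay above them in all 3. Mean fragment lengths differed here as well, at 212.2 to 219.5 bp with A-485 and 200.7 to 201.9 bp with DMSO. The part of fragment length in these snoRNA counts was not tested. With TSA, *Snhg1* fell by 1.15 and *Snord22* had −0.28 (SE 0.11, edgeR adjusted p = 0.0621). Between zygote and early 2-cell embryos, *Snhg6* fell by 2.62 and *Snord87* within it had 0.52. *Snord22* had 0.86 there (SE 0.21, edgeR adjusted p = 0.00416), under the 2-fold limit, beside 1.45 for *Snhg1*. The difference between a host and its snoRNA was not itself tested. *Snora73a* and *Snora73b* differ at 7 of 205 bases and *Snord50a* and *Snord50b* of *Snhg5* at 1 of 72, so reads may have been split between them.

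The genes for the proteins that bind excised snoRNAs were measured beside the hosts. The 4 core proteins of C/D particles are *Fbl*, the methyltransferase, with *Nop56*, *Nop58* and *Snu13*, and the 4 of H/ACA particles are *Dkc1*, the pseudouridine synthase, with *Gar1*, *Nhp2* and *Nop10*. In late 2-cell embryos, A-485 lowered 4 of 4 C/D genes (median −2.44) and 3 of 4 H/ACA genes (median −1.70), where the median of the members was −0.38 and that of all tested genes 0.28. Over the tested genes with a mean of at least 1 FPKM the median was 0.015. *Fbl* was at −3.72 and *Nhp2* at −4.90. *Nop10* had −0.36 and did not pass (edgeR adjusted p = 0.406). With TSA all 8 were lowered (medians −2.78 and −1.74, members −0.67, all genes 0.13, genes with a mean of at least 1 FPKM −0.03), with *Fbl* at −3.86 and *Nop58* at −3.04. In early 2-cell embryos A-485 lowered *Nop58* (−1.91), *Fbl* (−1.48) and *Nhp2* (−2.47), and in zygotes none. From early to late 2-cell DMSO embryos 4 of 4 C/D and 3 of 4 H/ACA genes rose, with *Fbl* at 3.26 and *Nop56* at 2.93.

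**Figure D3:**
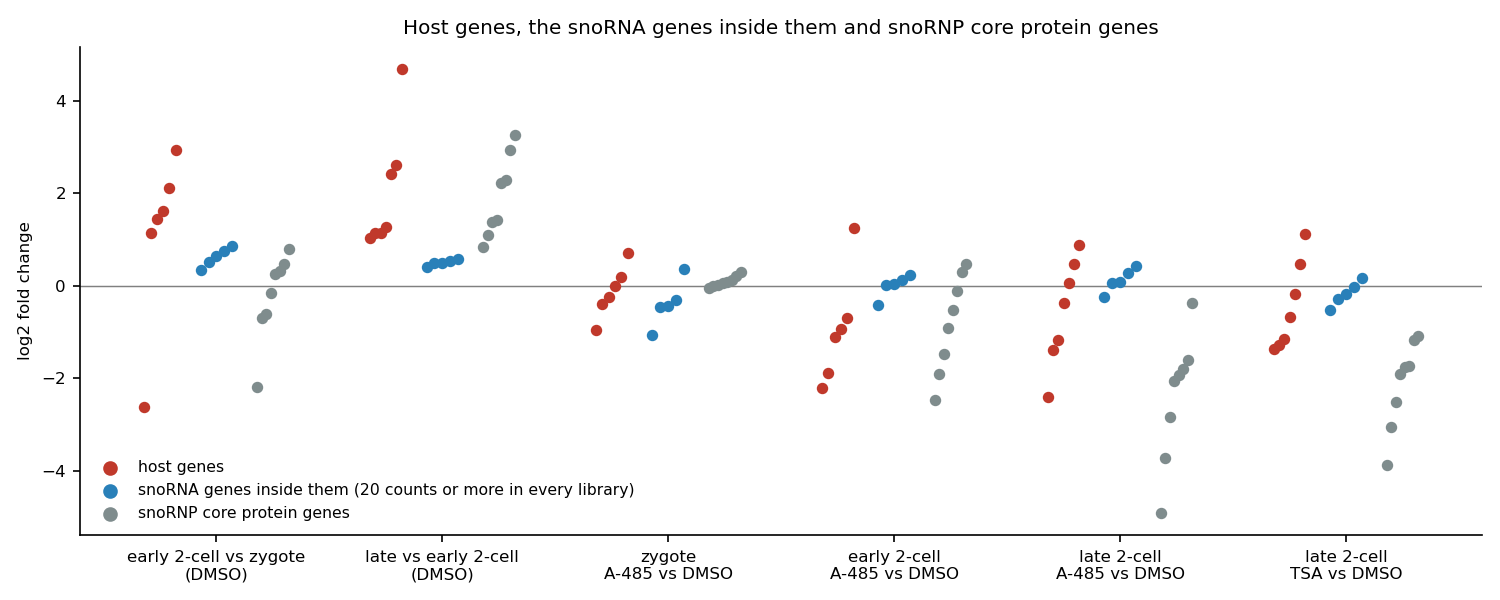
Log2 fold changes by comparison, 1 point per gene, of the host genes with a fold (red), the 5 snoRNA genes inside them with at least 20 counts in every library (blue) and the 8 core protein genes of snoRNA particles (grey). With A-485 in late 2-cell embryos the core proteins have medians of −2.44 (C/D) and −1.70 (H/ACA), the hosts a median of −0.38, and the 5 snoRNA genes lie between −0.24 and 0.43.

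Other genes of the pathway were counted in the same way. Of 13 factors for snoRNA particle assembly and cap formation, A-485 lowered 5 in early and 10 in late 2-cell embryos, and TSA lowered 10. *Znhit3*, an assembly factor, had −4.44, −5.78 and −4.01 in turn. Of 14 genes for nonsense-mediated decay and the exon junction complex, which removes spliced host RNAs, 3, 11 and 11 were lowered, with the junction core helicase *Eif4a3* at −1.33 in early and −3.72 in late 2-cell embryos with A-485. Of 78 ribosomal protein genes, which are TOP genes as well, 47, 76 and 75 were lowered, and 69 rose from early to late 2-cell DMSO embryos, where 16% of all tested genes were called higher. The counts of lowered genes stand against the same 7.9%, 16.7% and 13.9% of all tested genes called lower.

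Among 64 other noncoding snoRNA hosts, 31 to 40 were tested in these 3 comparisons. The list holds *Cct6a*, a chaperonin subunit gene that the annotation types as a processed transcript. In early 2-cell embryos A-485 lowered 1, *Cct6a* (−2.34), and raised none. In late 2-cell embryos A-485 lowered 2 and raised 4 of the 34 tested (median 0.22), and TSA lowered 3 and raised 5 of the 40 tested (median −0.10). *Cct6a* was among those lowered by both, at −2.12 and −1.52, and so was *Snhg15*, at −3.14 and −3.59, after a rise of 2.90 from early to late 2-cell DMSO embryos. Among 259 protein-coding snoRNA hosts, 230 to 242 of which were tested, A-485 lowered 36 and raised 1 in early 2-cell embryos and lowered 113 and raised 6 in late 2-cell embryos (median −1.07). TSA likewise lowered 113 and raised 6 (median −0.89). Of all tested genes, 7.9, 16.7 and 13.9% were called lower and 0.402, 10.5 and 13.8% higher in these 3 comparisons in turn. From early to late 2-cell DMSO embryos 91 of 232 tested protein-coding hosts rose and 18 fell, and 9 of 31 tested other noncoding hosts rose. Of all tested genes, 16% were called higher and 8.91% lower there.

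Genes that overlap the members or start next to them were followed as well. *Rcc1*, which encodes a nucleotide exchange factor for Ran, starts 81 bp from *Snhg3* and overlaps it over 5592 bp on the same strand, so reads from shared exons cannot be told apart by strand. *Rcc1* was lowered with A-485 in late 2-cell embryos (−2.00, edgeR adjusted p = 4.88e-05) and with TSA (−2.18, edgeR adjusted p = 2.72e-07), and rose from early to late 2-cell DMSO embryos (1.44), the same directions as *Snhg3*. With A-485 in early 2-cell embryos it had 0.12. *Zbtb37* overlaps *Gas5* over 428 bp on the opposite strand, and *Slc3a2* starts 106 bp from *Snhg1* on the opposite strand. Neither was called in the 6 comparisons of groups, but both had changes under 2-fold that passed the p threshold. *Zbtb37* had 0.70 with A-485 in late 2-cell embryos (edgeR adjusted p = 0.00281), and *Slc3a2* had −0.66 with TSA (edgeR adjusted p = 0.00145). By the interaction terms the A-485 effect on *Zbtb37* was higher in late than in early 2-cell embryos (0.71, edgeR adjusted p = 0.00597). It was also higher than the TSA effect (0.81, edgeR adjusted p = 0.00651). *Mcmdc2*, which overlaps *Snhg6* over 127 bp on the opposite strand, was tested in 3 of the 6 comparisons of groups. It stayed under 1 FPKM, so it could not be called.

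ATAC-seq peaks within 1 kb of the annotated gene start were found for 4 of the 7 members in late 1-cell embryos with DMSO and 4 with A-485, and for 5 with DMSO and 6 with A-485 in early 2-cell embryos. In the same order, 34.0, 33.0, 41.2 and 51.5% of 13600 expressed genes had such a peak. Expressed here means a mean of at least 1 FPKM in DMSO zygotes or in early 2-cell DMSO embryos. *Snhg3*, with means of 0 and 0.485 FPKM there, lay outside that set. The lists held 16283, 12843, 42382 and 23473 entries, each made once per stage and treatment over both replicates, so they carry no test. *Gas5*, *Snhg1* and *Snhg8* had a peak in all 4 lists. The strongest *Snhg1* summit lay 67 to 79 bp before the gene start, and that of *Snhg8* 66 to 89 bp before it. *Slc3a2* starts 106 bp from *Snhg1* on the opposite strand, so the *Snhg1* peak cannot be assigned to either gene alone. The same holds at *Gas5*, where *Zbtb37* starts 427 bp from the annotated gene start on the opposite strand. At *Gas5* the strongest summit lay 583 to 659 bp after the annotated gene start and 85 to 161 bp before the downstream RefSeq start, the one printed above with TATATA and CCTTTC. Its fold enrichment over background was 10.4, 8.68, 10.8 and 9.77, with −log10 q of 63.8, 37.7, 84.2 and 49.7.

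*Snhg5* had no peak in late 1-cell DMSO embryos and one in the other 3 lists, with fold enrichments of 6.75, 7.80 and 9.24. In early 2-cell embryos with A-485, where its RNA was lowered, the *Snhg5* peak had a fold enrichment of 9.24, against 7.80 with DMSO, from lists that were not scaled to each other. *Snhg6* had no peak with A-485 at the late 1-cell stage. *Snhg3* had a peak with A-485 in early 2-cell embryos alone, at a fold enrichment of 4.53 and a −log10 q of 7.92. *Rcc1* starts 81 bp from *Snhg3*, so this peak cannot be assigned to either gene alone. *Snhg12* had no peak in any list. A missing entry says only that no peak passed the authors' threshold there.

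**Figure D4:**
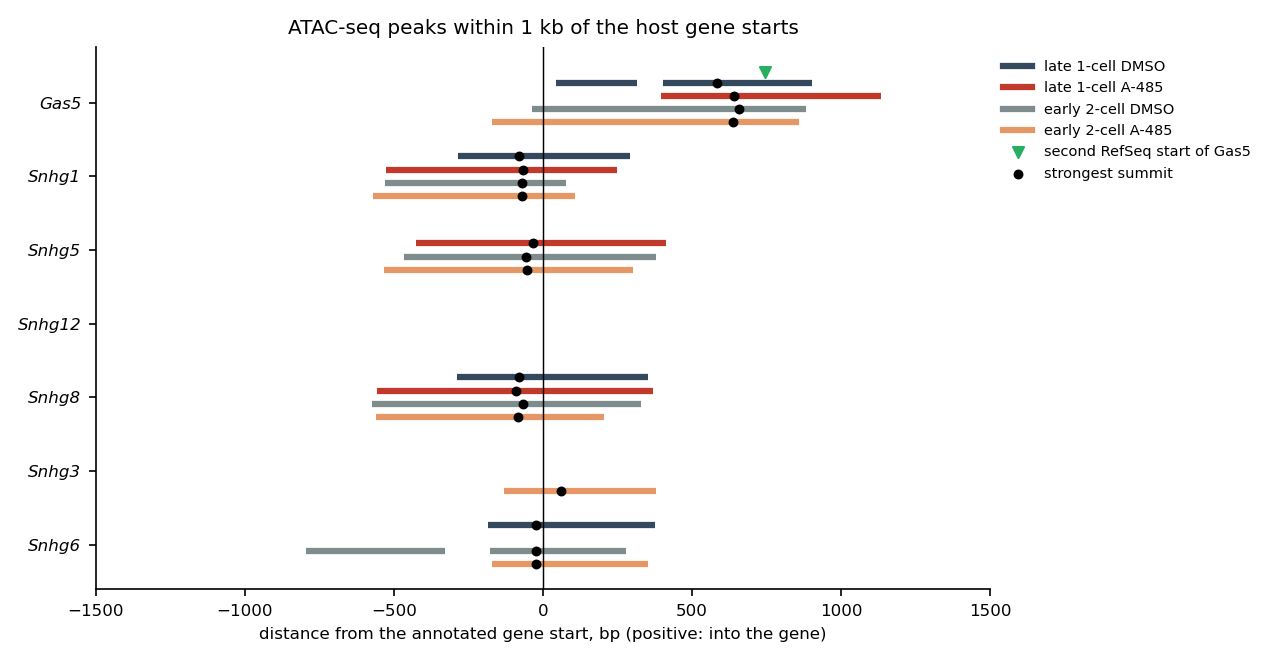
ATAC-seq peaks (bars) and strongest summits (dots) at the 7 host genes, by distance in bp from the annotated gene start with DMSO or A-485, at the late 1-cell or the early 2-cell stage. The *Gas5* summits lie 583 to 659 bp into the gene, close to its downstream RefSeq start (triangle), and *Snhg12* has no peak.

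Across the 8 group means, on log2(FPKM + 0.1), 6 of the members followed each other and *Snhg6* did not. Pearson's r was 0.824 to 0.953 over the 15 pairs without *Snhg6* and 0.209 to 0.401 over the 6 pairs with it. The groups share experiments, depth differences and the stage order, and *Snhg6* differs chiefly in its dip in early 2-cell DMSO embryos. Among 12166 genes with a mean of at least 5 FPKM in at least 1 group, those most like the mean pattern of the 7 members were *2410006H16Rik* (r = 0.987), itself one of the other noncoding snoRNA hosts, *Btg1*, an antiproliferation factor (0.984), and *Lima1*, an actin-binding protein (0.984). For single members the closest were *Foxred1* for *Snhg5* (0.994), *Enpp3* for *Snhg1* (0.991) and *Trp53bp2* for *Snhg8* (0.984), and the closest to *Snhg6*, *Gm2117*, reached 0.936.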

How the data were processed

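Total RNA-seq (SMART-Seq Stranded kit) was analysed in 16 libraries and ATAC-seq in 4 peak lists. Per the submitters' processing notes, reads were trimmed with Trimmomatic 0.39 and aligned to GRCm38 (mm10) with STAR 2.7.8a, and genes were quantified with RSEM 1.3.1, on an annotation release and strand setting not given in the sources used here. The authors deposited RSEM expected counts and FPKM per gene. The ATAC-seq lists hold the authors' IDR peaks, with a deposited score, fold enrichment ratio over background and −log10 q, called over both replicates. Other values in those files and the H3K27ac data were not analysed here.

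Estimated counts were rounded and tested with edgeR 4.0.16 (R 4.3.3, quasi-likelihood, TMM scaling, Benjamini-Hochberg) on the libraries of each comparison, after keeping genes with at least 10 counts summed. A call needed an adjusted p below 0.05, a 2-fold change and a mean of 1 FPKM in either group. Interaction terms needed the adjusted p alone. All 7 members are named by rule, and list genes were named for the size of called changes. Members and gene lists were chosen with earlier results of these data known. The genes per table numbered 55385, of which 55144 matched GENCODE M21 by identifier. RSEM effective lengths of a member varied between libraries, up to 4.28-fold for *Snhg12*, so FPKM was used for levels and scaled counts for tests. Alternatives were DESeq2 1.42.0, 2 other scalings, no filter, a joint fit, a replicate block, and leaving out each library. The fit was tested on data simulated for A-485 against DMSO in late 2-cell embryos. There 148 of 200 genes given a 4-fold change were recovered, with 6 false calls, so real changes can be missed. Total counts per library of 13206163 to 32585987 set the precision, and intervals on counts cover counting error only. RefSeq promoter sequences matched 6 of 7 members, and *Snhg6* had no entry.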

Additional observations from a re-analysis of the deposited data

Results flagged for a closer look

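*Snhg5* stood out because its response to A-485 differed between the stages by the interaction test, by 2.02 on the log2 scale (edgeR adjusted p = 4.83e-05), with 12.4 and 13.4 against 4.15 and 2.91 CPM in early and 33.8 and 32.9 against 32.5 and 37.1 CPM in late 2-cell embryos. Over the settings the *Snhg5* difference ranged from 0.98 to 2.25. Late embryos were collected after A-485 had been removed, so stage and time since removal cannot be told apart. *Gas5* stood out because its late 2-cell response differed between A-485 and TSA by the same kind of test, by −1.10 (edgeR adjusted p = 0.0192), across compounds given at different concentrations and hours in separate experiments. Groups of 2 libraries are too small to test any library as an outlier.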

How the results depend on the processing

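Of 593 recomputed values of 53 results, 518 kept their direction and side of the threshold, 36 lost a call, 11 gained one and 28 changed sign. Leaving out each library moved the number of called members over 0 to 0 (zygote A-485), 1 to 4 (early A-485), 0 to 3 (late A-485), 2 to 3 (TSA), 4 to 5 (early against zygote), 4 to 6 (late against early), 1 to 1 (stage difference) and 0 to 1 (A-485 against TSA). Scaling to library totals left 1 member called with TSA and put *Gas5* there at 0.17, and a joint fit left 2. Mitochondrial scaling left 1 called between early 2-cell embryos and zygotes, with *Gas5* at −0.17, and gave 2 for A-485 against TSA, as did DESeq2. With mitochondrial scaling, *Snhg1* and *Snhg5* turned to 0.040 and 0.26 in A-485 zygotes, where the median of all tested genes moved from −0.0052 to 0.26, *Snhg5*, *Snhg6* and *Snhg8* to −0.92, −0.084 and −0.52 in late A-485 embryos, *Snhg1* to −0.022 for A-485 against TSA, and the stage differences of *Gas5*, *Snhg1* and *Snhg12* to −1.03, −0.43 and −0.21. The *Gas5* stage difference was −0.070 with DESeq2, −0.026 without the filter, −0.049 in the joint fit and −0.015 with the replicate block. Results whose sign changed when 1 library was left out ranged over the values below. In A-485 zygotes *Snhg1* ranged from −0.46 to 0.017, *Snhg5* from −0.053 to 0.026 and *Snhg12* from −0.74 to 3.43. In late embryos *Snhg5* ranged from −0.023 to 0.17 with A-485 and *Gas5* from −0.43 to 0.11 with TSA. The stage difference ranged from −0.33 to 0.24 for *Gas5* and from −0.92 to 0.695 for *Snhg6*, and the difference between A-485 and TSA from −0.52 to 0.13 for *Snhg12*. The cause of these changes was not tested.

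Replicate numbers are shared between groups but mark no stated pairing. Deviations of same-numbered libraries correlated at −0.067 to 0.119, and a replicate block raised the calls in early A-485 embryos from 2 to 3, with *Snhg12* at −2.38 (edgeR adjusted p = 0.0116). Members with few counts, *Snhg3*, *Snhg6*, *Snhg8* and *Snhg12* before the late 2-cell stage, limit what could be detected there.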
